A study of Saccharomyces cerevisiae with 2 samples.

Results

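The budding yeast nucleus encodes tryptophan tRNA in 6 genes, tW(CCA)G1, tW(CCA)G2, tW(CCA)J, tW(CCA)K, tW(CCA)M and tW(CCA)P. Each of them has a listed level from small RNA-seq of S phase cells. They were taken as the rows of the table comparing the strains whose name begins with tW(CCA) and whose locus is not mitochondrial, which gave 6 of the 252 tRNA genes in the tables and 6 of the 239 nuclear ones. The WT library came from a strain with an unaltered CDK1 gene. The other library came from cdk1-as1, an allele in which the phenylalanine at position 88 of the Cdk1 kinase is replaced by glycine, which enlarges the ATP pocket so that a bulky inhibitor fits and also leaves a weaker kinase when no inhibitor is added. Cells of both strains were arrested in G1 with the pheromone α factor (15 mg/L for 3 h), released into YPD medium, with or without nocodazole, and collected when microscopy showed S phase. The question was how the level of tRNA in S phase depends on Cdk1 activity. There is 1 library per strain, so no difference below has a replicate check and none was tested. The paper states that flow cytometry was also used to check that the RNA came from S phase cells. Fewer cells in S phase and less tRNA per cell cannot be told apart from the tables themselves.

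Tryptophan is encoded by a single codon, UGG, and the CCA anticodon pairs with it, so the cytoplasm of yeast depends on this gene family for every tryptophan it builds into protein. Like other tRNA genes they are transcribed by RNA polymerase III from a promoter inside the gene, an A box and a B box bound by TFIIIC, which brings in TFIIIB and then the polymerase. Transcription stops in a run of T after the gene. The precursor carries an intron next to the anticodon that is cut out by the tRNA splicing endonuclease, after which the exons are ligated. RNA that holds the intron therefore comes from recent transcription.

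In the RefSeq annotation of the R64 (sacCer3) genome, tW(CCA)G1 lies on chromosome VII from 287350 to 287455 and tW(CCA)G2 on chromosome VII from 878710 to 878815. tW(CCA)J lies on chromosome X from 415931 to 416036, tW(CCA)M on chromosome XIII from 379303 to 379408 and tW(CCA)P on chromosome XVI from 56169 to 56274. These 5 genes are on the minus strand. tW(CCA)K, on chromosome XI from 302918 to 303023, is the 1 gene on the plus strand. Each gene is 106 nt long, with an exon of 36 nt, an intron of 34 nt and a further exon of 36 nt, and no other annotated gene, long terminal repeat or mobile element overlaps any of them. The nearest protein-coding gene to the left of tW(CCA)J is RPC17, 1160 nt away, which encodes a subunit of RNA polymerase III. tW(CCA)P lies 15 nt from an annotated long terminal repeat or mobile element, tW(CCA)M 104 nt, tW(CCA)J 229 nt and tW(CCA)K 292 nt from one, whereas tW(CCA)G2 and tW(CCA)G1 lie 2430 and 31241 nt away.

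The sequence of the gene is shown because it is the same, base for base, in all 6 copies, intron included (0 differences in each of the 15 pairs). In the first line the capitals mark the intron, and in the second, where the exons are joined, they mark the anticodon. The sequences are from the RefSeq R64 genome, read 5′ to 3′ on the strand of the gene (chrVII:287350-287455 for the copy tW(CCA)G1).
tW(CCA) gene: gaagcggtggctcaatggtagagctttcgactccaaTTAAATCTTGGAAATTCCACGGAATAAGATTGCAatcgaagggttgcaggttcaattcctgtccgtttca
tW(CCA) exons joined: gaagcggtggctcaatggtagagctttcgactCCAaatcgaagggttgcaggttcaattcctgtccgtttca

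Counted from the first base of the gene, the anticodon is at bases 33 to 35 and the intron at bases 37 to 70, so that 1 base separates them. The A box, taken at its usual place from base 8 to 18, reads TGGCTCAATGG, and the B box, found by its core GGTTC, lies at bases 85 to 95 and reads GGTTCAATTCC. Searched in the exons of the 275 annotated nuclear tRNA genes, on the gene strand, the core GGTTC was found in 71.3%, the whole B box of the tryptophan genes in 33 genes (12%), and their A box in 6 genes (2.18%), the tryptophan genes themselves.

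The study's primers for tryptophan tDNA are shown because they tell which RNA its other assays read, with bases that pair with the intron in capitals.
Forward primer: tggctcaatggtagagctttcg
Reverse primer: GGAATTTCCAAGATTTAAttggagtcg
Northern probe: caggaattgaacctgcaacccttc
The forward primer matches bases 8 to 29 and the reverse primer is complementary to bases 28 to 54, of which 18 are in the intron, so the product of 47 nt spans bases 8 to 54 and needs intron-containing RNA or DNA. The Northern probe is complementary to bases 74 to 97, all in the second exon. Each of the 3 oligonucleotides has 6 perfect sites in the genome, 1 in each tW(CCA) gene, and so reads the family as a whole, as the map of the gene shows.

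**Figure D1:**
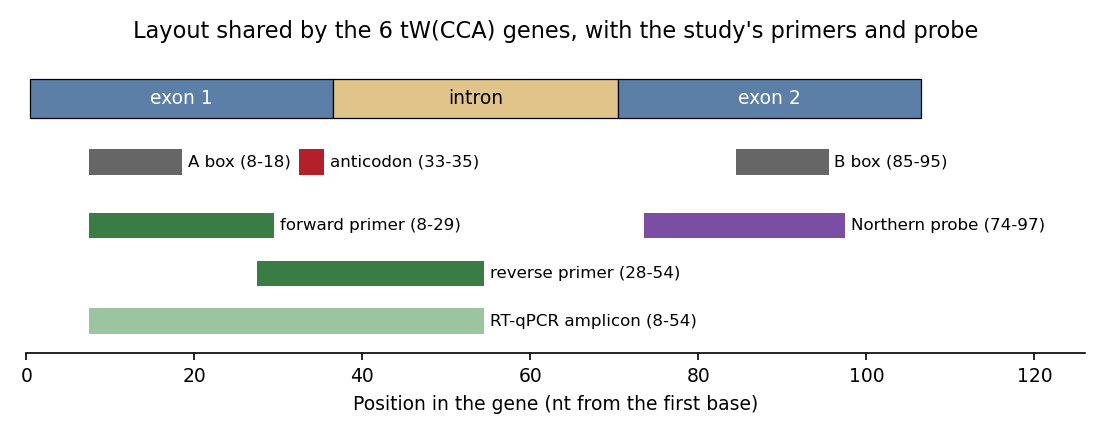
Layout of the 106 nt tW(CCA) gene, shared by the 6 copies, drawn to scale along positions in nt from the first base. Bars show exons, the intron at bases 37 to 70, the A box and B box motifs, the anticodon at bases 33 to 35, and the places of the primers and the probe. The reverse primer reaches into the intron and the probe does not.

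Only the surrounding sequence tells the copies apart. Over the 50 bases before the gene the 15 pairs were 24% to 78% identical position by position (median 38%), the closest pair being tW(CCA)G1 and tW(CCA)G2, and over the 40 bases after it they were 22.5% to 55% identical (median 40%). The 40 bases after each gene are shown because RNA polymerase III stops in a run of T, with the longest run in capitals.
tW(CCA)G1, chrVII:287310-287349, minus strand: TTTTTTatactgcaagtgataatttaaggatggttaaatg
tW(CCA)G2, chrVII:878670-878709, minus strand: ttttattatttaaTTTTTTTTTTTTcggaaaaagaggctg
tW(CCA)J, chrX:415891-415930, minus strand: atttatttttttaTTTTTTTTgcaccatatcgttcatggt
tW(CCA)K, chrXI:303024-303063, plus strand: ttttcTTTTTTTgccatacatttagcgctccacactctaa
tW(CCA)M, chrXIII:379263-379302, minus strand: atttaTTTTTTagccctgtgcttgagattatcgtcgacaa
tW(CCA)P, chrXVI:56129-56168, minus strand: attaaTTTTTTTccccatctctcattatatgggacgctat
The longest run has 6 T in tW(CCA)G1 and tW(CCA)M, 7 in tW(CCA)K and tW(CCA)P, 8 in tW(CCA)J and 12 in tW(CCA)G2. It begins at the first base after tW(CCA)G1 and at base 14 after tW(CCA)G2 and tW(CCA)J. In tW(CCA)J a run of 7 T comes before the longest run. Which run ends transcription was not tested. A run of 5 T (TTTTT, searched on the gene strand) is found in these 40 bases for 6 of 6 tryptophan genes and for 98.5% of the 275 nuclear tRNA genes, so that it does not set the family apart.

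FPKM, fragments scaled to the length of the gene and to the library, was used as deposited. By FPKM the listed level was lower in cdk1-as1 than in WT cells for each of the 6 tryptophan genes. Fragments within the gene cannot tell the copies apart, so these are not 6 separate measurements. With estimated counts scaled to equal totals, given below, 0 of the 6 were lower. All copies have the same length, but FPKM was not in fixed proportion to the count, so the order of the copies holds for FPKM alone. tW(CCA)G1 had 53749 FPKM in WT and 19763 FPKM in cdk1-as1, and tW(CCA)G2, tW(CCA)J, tW(CCA)M and tW(CCA)P had exactly the same values. For these 5 genes the cdk1-as1 level was 36.8% of WT, a log2 ratio of −1.44. tW(CCA)K had 82039 FPKM in WT and 11652 FPKM in cdk1-as1, 14.2% of WT and a log2 ratio of −2.82. By FPKM the plus-strand copy was thus the highest of the family in WT and the lowest in cdk1-as1, and the 6 genes hold only 2 values per library.

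The family was lower by FPKM in 6 of 6 genes, which hold 2 values, and by at least 2-fold in 6 of 6. Among the 191 nuclear tRNA genes measured in WT and cdk1-as1 alike, the share that was lower in cdk1-as1 was 91.1%, and the share at least 2-fold lower was 67.0%. These 191 genes hold 68 distinct pairs of values, so shares and medians over them count a shared value once per copy. Of the 54 with an intron, 47 were lower and 21 were at least 2-fold lower. The median log2 ratio of FPKM was −1.44 over the tryptophan genes, −1.48 over the 191 genes and −0.98 over the 54 genes with an intron. Summed over the 6 genes, FPKM went from 350782 in WT to 110468 in cdk1-as1, a log2 ratio of −1.67 or 31.5% of WT. The tables summed to 41.5% of WT in FPKM over all listed genes, and with both libraries brought to that same total the log2 ratios were −0.17 for tW(CCA)G1 and its 4 copies and −1.55 for tW(CCA)K. On that scale both tryptophan values, and so 6 of 6 genes, were below 0, against 63.4% of nuclear genes.

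The estimated counts behind these values were small. Their totals over all listed genes, 2952 for WT and 1570 for cdk1-as1, are far below the number of reads per library that the methods give, and whether they are all the fragments of a library is not stated. The intervals below hold only if they are. Those of sums over identical copies also require that each fragment was divided among the copies, which is not stated either. tW(CCA)G1 and each of its 4 copies had an estimated count of 20.3 in WT and of 11.5 in the mutant. Summed, the WT count of these 5 copies was 101.4, with a 95% Poisson interval of 82.3 to 122.7, against 57.3 (43.2 to 73.9) in cdk1-as1, a log2 ratio of −0.82 with a 95% Clopper-Pearson interval of −1.32 to −0.34. For tW(CCA)K the count was 9.12 in WT (4.12 to 17.1) and 7.52 in cdk1-as1 (3.45 to 15.8), a log2 ratio of −0.28 with an interval of −1.74 to 1.38 that includes 0. With equal count totals the log2 ratio of the 5 minus-strand copies was 0.087 (−0.41 to 0.57), and that of tW(CCA)K 0.63 (−0.83 to 2.29), so that beyond the lower total of the cdk1-as1 table no difference was detectable in either at these counts.

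In counts the order of the copies also differed from that in FPKM. tW(CCA)K had 0.450 of the count of tW(CCA)G1 in WT and 0.657 in cdk1-as1, but 1.53 times its FPKM in WT and 0.590 times its FPKM in cdk1-as1. It made up 8.25% of the family's counts and 23.4% of its FPKM in WT, and 11.6% and 10.5% in cdk1-as1. Only the WT library thus shows tW(CCA)K above the other copies, and only in FPKM.

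**Figure D2:**
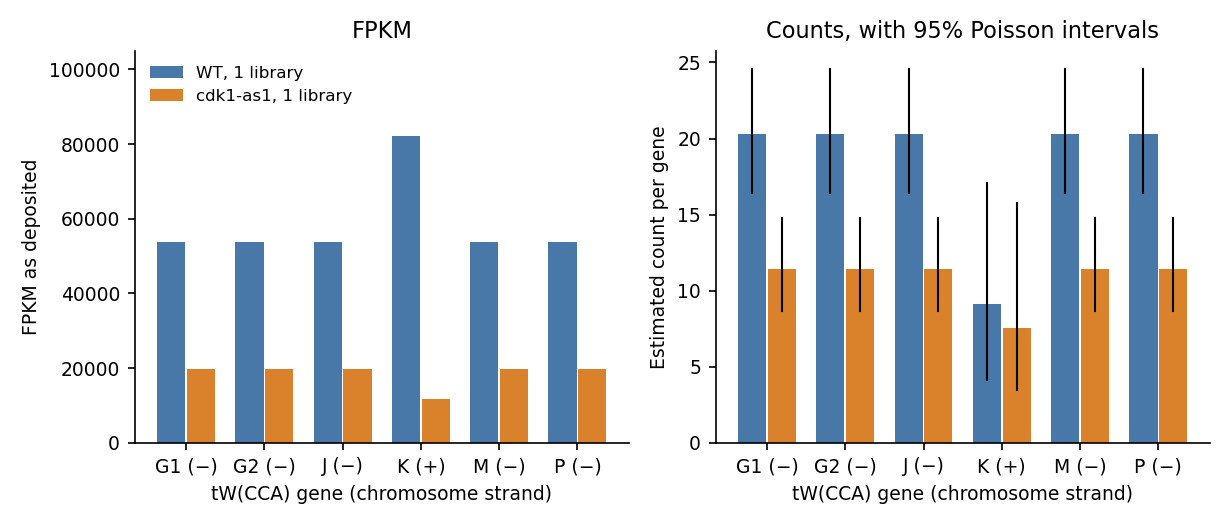
FPKM (left) and estimated count (right) of each tW(CCA) gene in the 1 WT library (blue) and the 1 cdk1-as1 library (orange), with the chromosome strand in parentheses. Lines are 95% Poisson intervals of the counts, for the 5 minus-strand copies those of their sum divided by 5, and they cover counting error only. For those copies they assume that each fragment was divided among the copies. tW(CCA)K has 82039 FPKM in WT, above the 53749 FPKM of the other copies, but 9.12 counts against 20.3.

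Over the whole family 111 counts in WT (91.3 to 134) and 64.8 in cdk1-as1 (50.2 to 82.8) gave a log2 ratio of −0.77 (−1.24 to −0.32), or 58.6% of WT. All 6 genes were lower by counts, as were 82.7% of the 191 nuclear genes, and 0 of the 6 were at least 2-fold lower, against 59.7% of the nuclear genes. By counts 16 of the 54 intron-containing genes were at least 2-fold lower, against 98 of the 137 intronless genes. The median log2 count ratio was −0.82 over the intron-containing genes, and −0.82 over the tryptophan genes as well. The total over all listed genes in cdk1-as1 was 53.2% of that in WT. The tryptophan genes took 3.83% of the nuclear tRNA counts in WT (95% Clopper-Pearson interval 3.17% to 4.61%) and 4.31% in cdk1-as1 (3.35% to 5.47%). Each share lay within the interval of the other, under the conditions on the counts given above. With equal count totals the log2 ratio of the family was 0.14 (−0.33 to 0.59). On that scale 0 of 6 genes were lower, against 59.7% of the nuclear genes and 29.6% of the intron-containing ones. By FPKM the share of the family went the other way, from 3.45% of the nuclear total in WT to 2.58% in cdk1-as1.

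The step from counts to FPKM was examined because the ratios depended on it. If FPKM were in fixed proportion to count over length, the library total implied by a gene's count, FPKM and length (the count over the product of FPKM and length, scaled to whole fragments) would be the same for each gene of a library. Among the 73 nuclear genes with at least 10 counts in WT this number had a median of 3579 and ranged from 3099 to 4248, and tW(CCA)G1 and its copies, at 3560, lay close to the median. tW(CCA)K lay at 1049, so that its FPKM in WT was 3.41 times what its count would give at that median. In its own class, the 84 genes with 1 to 10 counts in WT, the median was 3215 and the range 353 to 4865, which holds tW(CCA)K. Of the 101 nuclear genes with at least 5 counts in WT, tW(CCA)K was the farthest from the median. The next above proportion were the arginine gene tR(ACG)K at 1.74 times and the glycine gene tG(UCC)G at 1.34 times the proportional FPKM, both named after their values were seen.

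In cdk1-as1 the departure was in the other direction. The 48 nuclear genes with at least 10 counts had a median of 4634 (4295 to 5469), and the 5 minus-strand tryptophan copies, at 5469, were the highest of them, with 0.847 times the proportional FPKM. tW(CCA)K, at 6091, was the highest of the 48 genes with 1 to 10 counts, whose median was 2226. Its FPKM was 0.761 times the proportional value at the median of genes with at least 10 counts. Against the median of its own class it lay lower still. Dividing counts by the median factor of each library, an alternative added with the values in view, gave log2 ratios of −1.20 for tW(CCA)G1 and −0.65 for tW(CCA)K, which puts tW(CCA)K nearer to WT than the other copies. What set the FPKM of tW(CCA)K was not tested.

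**Figure D3:**
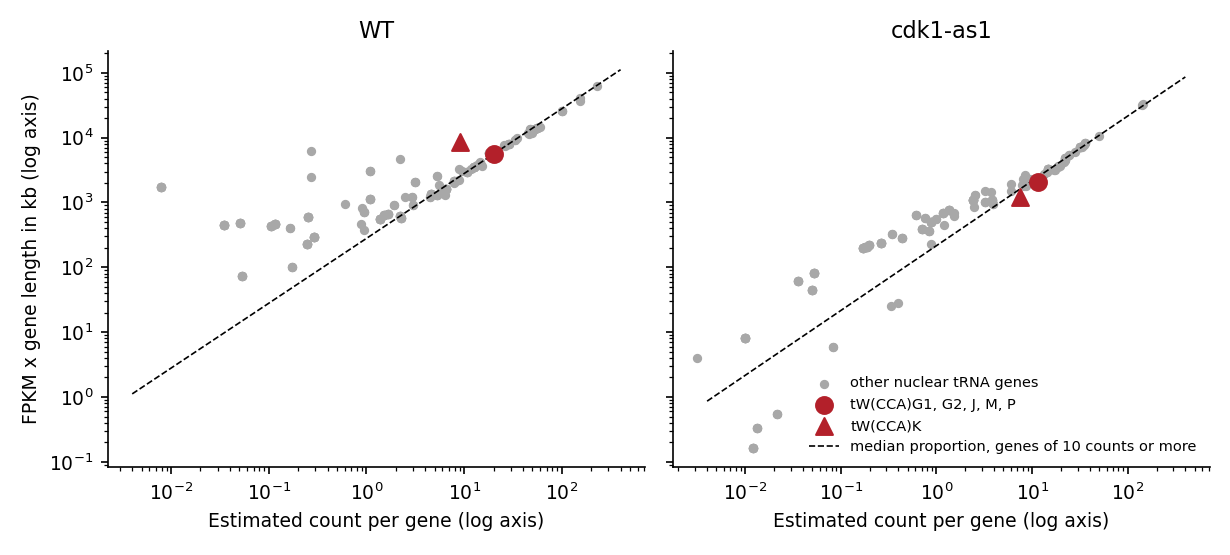
FPKM times gene length in kb against estimated count for each nuclear tRNA gene, both on log axes, in the WT library (left) and the cdk1-as1 library (right). Red symbols are the tW(CCA) genes and the dashed line is the median proportion of genes with at least 10 counts. The triangle, tW(CCA)K, lies at 3.41 times the line in WT and at 0.761 times the line in cdk1-as1.

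The split of the family followed the strand of the chromosome on which a copy lies. The 5 minus-strand copies shared every value although their flanks differ, and tW(CCA)K, identical to them over the whole gene, had values of its own. The same was seen in other families. In 23 sets of nuclear tRNA genes with the same gene sequence and copies on both strands, all copies on a strand had the same values in 22 sets, the exception being the serine set of tS(UGA)E, and in 0 of the 23 sets was a count shared between the strands. The sets of tE(CUC)D and tS(GCU)F have 1 copy on each strand, so for them 1 value per strand was fixed in advance. Where 1 strand has a single copy, as in tW(CCA), only the other strand could have varied. Of these sets 18 had values for both strands in both libraries, and the plus-strand copies had the higher count (the mean over copies for tS(UGA)E) in 8 of them in WT and in 9 in cdk1-as1. In 6 sets with 1 value per strand, every copy had at least 5 counts in WT, and there the strands differed 1.62-fold to 10.8-fold in count per copy (median 4.29), the tryptophan genes by 2.22-fold. In cdk1-as1 the tryptophan strands differed by 1.52-fold.

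The log2 ratio of FPKM between strains differed by strand as well. The gap was 1.37 in the tryptophan genes, and larger in 9 of the 18 sets, with a median of 1.55. The order of the strands in WT was opposite in FPKM and in counts in 2 of the 18 sets, those of tW(CCA) and of the isoleucine genes of tI(AAU)B, the latter with less than 1 count per copy. Fragments that lie within the gene cannot tell tW(CCA)K from the other copies, so a value of its own for this locus cannot be read from the tables. The sources used here do not say how the counting treated strand, and its part in the split was not tested.

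**Figure D4:**
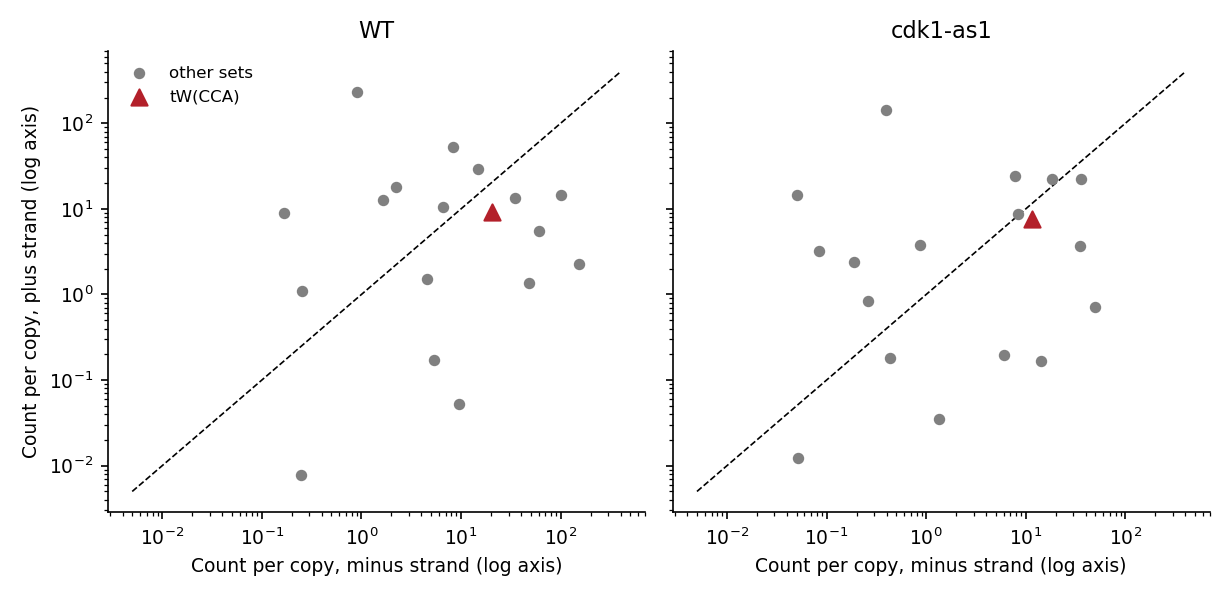
Estimated count per copy on the plus strand against that on the minus strand, on log axes, for 18 sets of nuclear tRNA genes with identical gene sequences, in WT (left) and cdk1-as1 (right). Points on the dashed line would have equal counts on both strands. The red triangle is tW(CCA), at 9.12 against 20.3 counts in WT and 7.52 against 11.5 in cdk1-as1.

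In the order of FPKM levels tW(CCA)K was 30th and tW(CCA)G1 with its copies 46th of 232 nuclear genes in WT, and they were 79th and 50th of 198 in cdk1-as1. By count tW(CCA)G1 with its copies was 32nd and tW(CCA)K 75th in WT, and they were 44th and 55th in cdk1-as1. Of the 191 genes with both values, 37 had a lower log2 ratio of FPKM than tW(CCA)K and 107 a lower one than tW(CCA)G1, whereas 151 had a lower log2 ratio of counts than tW(CCA)K and 121 a lower one than tW(CCA)G1. The place of tW(CCA)K thus turned with the measure. Directly below and above tW(CCA)K in the order by FPKM ratio were the serine genes of tS(AGA)B (−3.08, 1.09 and 0.837 counts per copy) and the alanine genes of tA(UGC)E (−2.48, 18.7 and 3.19 counts). Next to tW(CCA)G1 were the valine genes of tV(AAC)E1 (−1.47) and the serine genes of tS(AGA)A (−1.36), which had 0.253 counts in WT. With 1 library per strain, it cannot be said whether such neighbours differ.

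The genes most like the tryptophan genes were found by the distance between log2 FPKM values in the 2 libraries, over 68 sets of genes with both values. Nearest to tW(CCA)G1 were the glycine gene tG(UCC)G (45937 and 20533 FPKM), the leucine gene tL(CAA)A (43461 and 21385) and the 10 aspartate genes of tD(GUC)B (48715 and 15005). Nearest to tW(CCA)K were the 3 alanine genes of tA(UGC)E (77584 and 13943), the leucine genes tL(UAG)J and its copy (89943 and 9429) and the proline gene tP(UGG)O1 (77243 and 17552). Those near tW(CCA)K by FPKM stood apart from it by count. tA(UGC)E had a log2 count ratio of −2.55, tL(UAG)J of −3.10 and tP(UGG)O1 of −1.70, where tW(CCA)K had −0.28.

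**Figure D5:**
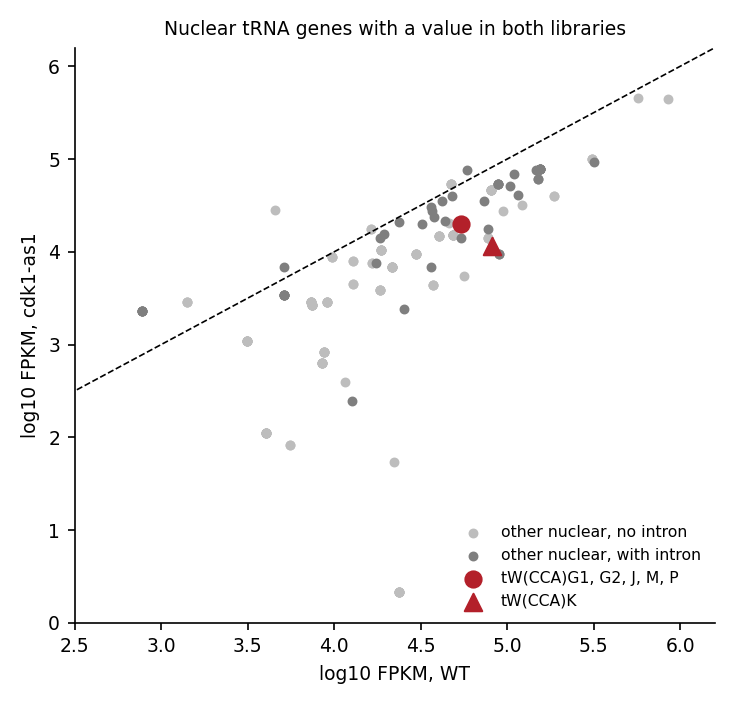
log10 FPKM in cdk1-as1 against log10 FPKM in WT for the 191 nuclear tRNA genes with both values, with 1 library per strain. Light points have no intron, dark points have one, and the dashed line marks equal levels. The red circle (5 minus-strand tW(CCA) copies, log2 ratio −1.44) and the red triangle (tW(CCA)K, −2.82) both lie below the line.

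Among intron-containing tRNA genes, whose precursors need the same endonuclease and ligase as tryptophan tRNA, 11 anticodons as named in the tables were measured, with 54 genes. Summed counts were lower in cdk1-as1 for all 11, from −3.32 for the serine gene tS(CGA) to −0.11 for the isoleucine genes tI(UAU), and the intervals of tK(UUU) and tI(UAU) include 0. By count some genes of these families went the other way, with 1 of 7 tK(UUU), 6 of 10 tF(GAA), 7 of 8 tY(GUA) and 1 of 2 tI(UAU) genes lower. With genes grouped as named, the tryptophan genes, at −0.77, were the 6th from the lowest. The phenylalanine genes tF(GAA) lay at −0.59 (−0.83 to −0.36) and the tyrosine genes tY(GUA) at −0.59 (−0.88 to −0.30), with intervals that overlap that of tryptophan. The leucine genes tL(CAA) lay at −1.37 (−1.77 to −0.97), and this interval also overlaps that of tryptophan. Overlap of separate intervals does not settle whether families differ, and the differences between families were not tested. In summed FPKM tryptophan, at −1.67, came after tS(CGA) at −2.39 and tL(UAG) at −2.22, with tL(CAA) at −1.47, tY(GUA) at −0.87 and tF(GAA) at −0.80. Without tW(CCA)K the tryptophan sum was at −1.44, after tL(CAA) as named. The 2 leucine genes named tL(CCA), with introns of 32 to 33 nt like those of tL(CAA), were kept apart. They lay at −1.04 in summed FPKM and −0.91 in summed counts. Whether they belong to tL(CAA) was not tested, and placing them there could change the order of the families. With equal FPKM totals 17 of the 54 intron-containing genes were lower. They were the 6 tryptophan genes, which hold 2 values, 4 of 5 tP(UGG), 2 of 3 tL(UAG), 2 of 8 tY(GUA), 1 of 8 tL(CAA), 1 of 7 tK(UUU) and the 1 tS(CGA) gene, with none of the 10 tF(GAA) genes among them. With equal count totals 16 of the 54 were lower, 0 of them tryptophan genes.

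The tables list 1 value per gene, over a length that includes the intron, and do not separate fragments of the precursor from fragments of spliced tRNA. The paper notes that modified bases of mature tRNA can hinder its sequencing. The count intervals carry no error between cultures.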

How the data were processed

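A miRNA isolation kit was used to obtain small RNA, which was sequenced as paired-end reads, with ERCC spike-in standards for normalization and the Ensembl R64 annotation. The submitters' processing notes name sacCer3. Aligner and counter: not given in the sources used here. The authors deposited, per library, an estimated count, also called expected count, and an FPKM value per tRNA gene. Where the spike-in entered these columns is not stated. In a further deposited table the authors give RPKM values equal to the FPKM values, with 0.1 for absent genes, and their own fold changes, scores headed FDR and log10 values, which were not used.

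Positions matched all 252 genes to the RefSeq R64 annotation, and sequences were read from that genome. 2 misprinted names were corrected. Log2 ratios (cdk1-as1 over WT) were taken with no pseudocount. Poisson and Clopper-Pearson intervals are at 95%, on rounded counts. Functions were tested on simulated data. Python 3.11.15, numpy 2.4.6, pandas 2.3.3, scipy 1.17.1 and matplotlib 3.10.9 were used. The members, lists and the rule for named genes (the 6 genes, for each of their values the 3 nearest sets and the neighbours in ratio, and genes with at least 5 counts that depart as far from proportion) were chosen with earlier results of these data known. Alternatives were pseudocounts, equal totals, counts, the RPKM table, copies counted as 1, a minimum of 10 counts and exon length.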

Additional observations from a re-analysis of the deposited data

How the results depend on the processing

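Pseudocounts of 1, 100 and 1000 and the authors' side-by-side table kept all 6 genes lower, tW(CCA)G1 at −1.40 to −1.44 and tW(CCA)K at −2.71 to −2.82. FPKM scaled to equal totals gave log2 ratios of −0.17 for tW(CCA)G1 and its copies and for the median of the 6 genes, and −0.40 for their sum. Estimated counts as deposited gave −0.82 for tW(CCA)G1 and the median, −0.28 for tW(CCA)K and −0.77 for the sum. Estimated counts scaled to equal totals turned the direction, with 0.087 for tW(CCA)G1 and the median, 0.63 for tW(CCA)K and 0.14 for the sum, and 0 of 6 genes lower. These scalings differ by construction in what they hold equal between libraries, and which of them fits the spike-in standards was not tested. Counts divided by 1 factor per library, an alternative added with the values in view, gave −0.65 for tW(CCA)K. With identical copies counted as 1 the 6 genes become 2 values, both lower, with a median of −2.13, and with at least 10 counts in 1 library tW(CCA)K drops out and 5 of 5 are lower. With exon length only, the count per FPKM and length of tW(CCA)G1 moved from 3560 to 5242 in WT and from 5469 to 8052 in cdk1-as1, by construction. No paired analysis was possible because there is 1 library per strain, and no library could be left out. The count of tW(CCA)K, under 10 in each library, limits what can be said of it.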
